A study of Mus musculus with 4 samples.

Results

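The genes described here are 8 markers of the undifferentiated state of mouse embryonic stem cells: Zfp42, Fbxo15, Rhox5, Dppa2, Dppa3, Tdgf1, Fgf4 and Zfp57. They are every probe set that the array's annotation gave to one of these symbols and to no other gene. This took in 8 probe sets, 1 for each gene, of 12422 probe sets and 8251 genes on the array. The series title asks what leukemia inhibitory factor (LIF) does in embryonic stem cells that overexpress the kinase Akt. Total RNA from E14tg2a, a mouse embryonic stem cell line grown without feeder cells, was hybridised to 4 Affymetrix arrays, 1 array for each group. Control cells were cultured with LIF at 3000 U/ml or for 4 days without it, and cells expressing a constitutively active form of Akt, called Akt12 in the titles and Akt cells here, were cultured in the same 2 ways. The sources used here do not give the promoter that drives the active Akt, nor whether Akt12 is 1 clone or the controls hold an empty vector.

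LIF acts through its receptor and the transcription factor STAT3 to hold mouse embryonic stem cells in an undifferentiated state, and the PI3-kinase pathway, in which Akt acts, is also known to support self-renewal. Genes such as these are active in the inner cell mass and in undifferentiated cultures and are turned down as the cells leave that state, in part because the factors OCT4 and SOX2 bind near several of them. Zfp42, also called Rex1, encodes a zinc finger protein and is a standard reporter of the naive state. Fbxo15 encodes an F-box protein and is a known OCT4 and SOX2 target. Rhox5, also called Pem, is an X-linked homeobox gene. Dppa2 encodes a chromatin protein that acts with DPPA4 on genes of the early embryo. Dppa3, also called Stella, encodes a maternal protein that protects DNA methylation in the fertilized egg. Tdgf1, also called Cripto, encodes a coreceptor for the growth factor Nodal, Fgf4 encodes a secreted growth factor that signals to ERK, and Zfp57 encodes a zinc finger protein that keeps methylation at imprinted loci.

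The sequences just upstream of 3 of these genes are shown because they differ in what surrounds the start site, while the genes themselves were all lower without LIF. Each window is from RefSeq on build GRCm38.p6, runs 5′ to 3′ on the gene's own strand, and covers 250 bases before to 50 bases after the annotated start. Zfp42 lies at chr8:43306960-43307259 on the minus strand, Rhox5 at chrX:37754358-37754657 on the plus strand, and Fgf4 at chr7:144861136-144861435 on the plus strand. Capitals mark matches on either strand to 6 motifs: the octamer ATGCAAAT bound by OCT4 and its relatives, the SOX motif ACAAAG, the KLF motif GGGTGTGG, the ESRRB motif AAGGTCA, the STAT motif TTCCNGGAA and the CCAAT box.
Zfp42: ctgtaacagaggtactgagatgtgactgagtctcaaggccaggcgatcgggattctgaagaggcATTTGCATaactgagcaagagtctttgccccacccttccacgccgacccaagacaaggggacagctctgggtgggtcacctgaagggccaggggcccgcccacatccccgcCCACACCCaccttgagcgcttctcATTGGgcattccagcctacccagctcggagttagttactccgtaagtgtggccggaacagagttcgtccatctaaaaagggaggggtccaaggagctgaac
Rhox5: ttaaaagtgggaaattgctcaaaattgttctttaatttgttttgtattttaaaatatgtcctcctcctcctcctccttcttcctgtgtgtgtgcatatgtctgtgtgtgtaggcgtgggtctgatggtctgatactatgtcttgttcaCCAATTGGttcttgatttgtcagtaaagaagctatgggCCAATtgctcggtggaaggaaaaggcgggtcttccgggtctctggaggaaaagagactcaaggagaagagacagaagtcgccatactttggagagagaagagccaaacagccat
Fgf4: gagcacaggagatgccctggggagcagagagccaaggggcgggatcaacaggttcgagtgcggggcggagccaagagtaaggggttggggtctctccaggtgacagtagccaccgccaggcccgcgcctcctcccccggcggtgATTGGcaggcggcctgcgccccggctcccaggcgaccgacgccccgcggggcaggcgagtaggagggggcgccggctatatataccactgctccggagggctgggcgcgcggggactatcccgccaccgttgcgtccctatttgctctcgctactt

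The Zfp42 window holds an octamer 186 to 179 bases before the start, a KLF motif 75 to 68 bases before it and a CCAAT box 51 to 47 bases before it, each read on the opposite strand. In the Rhox5 window there are 3 CCAAT boxes, of which the first 2 overlap, and the Fgf4 window has 1 CCAAT box. Among all 32851 windows of the table, 1.74% hold the octamer, 3.56% the KLF motif, 4.72% the ESRRB motif, 1.15% the STAT motif, 18.7% the SOX motif and 37.4% a CCAAT box. The Fgf4 window has 28 CpG dinucleotides, more than 85.8% of windows, whereas that of Zfp42 has 11 and that of Rhox5 has 5, against a median of 7. The table held 7 windows for 5 of the 8 genes, with 1 window for Tdgf1, which matched no motif, and 3 for Zfp57, which matched SOX, ESRRB and CCAAT once each. Fbxo15, Dppa2 and Dppa3 have no window in it. A match describes the letters of the window and is not evidence of binding.

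All values below are quantile-normalized intensities, given first for control cells with and then without LIF, and next for Akt cells in the same order of media. For the log2 scale, values below a floor of 15.8, the 40th percentile, were set to that floor. All 8 genes were above it on all 4 arrays, as were 6511 probe sets. A gene was counted as different between 2 arrays at 2-fold, a log2 difference of 1. With 1 array in each group there is no replicate and no test within a comparison. The only error at hand was the SD of log2 differences between probe sets of the same gene, 0.41 for LIF withdrawal in control cells (827 genes) and 0.35 in Akt cells (829 genes), and it says nothing about how far separate cultures differ. Before normalization the 2% trimmed means were 122, 98.1, 82.3 and 81.0. The ratio of the 3′ to the 5′ probe set of actin, a sign of RNA integrity, was 2.33, 1.66, 3.04 and 2.48, lower without LIF in both lines, whereas that of Gapdh was 3.03, 3.19, 3.05 and 2.46, higher without LIF in control cells and lower in Akt cells. The part of RNA integrity in the differences below was not tested. In these bulk samples, fewer undifferentiated cells and less RNA per cell cannot be told apart.

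The question of the first comparison is what LIF withdrawal did in control cells. All 8 genes were at least 2-fold lower after 4 days without LIF, with a median log2 difference of -2.39. Of 7985 probe sets 6.19% were at least 2-fold lower, and the median of all was -0.02. The 8 genes were chosen with earlier results of these data known, so this count is a description only. Fbxo15 and Zfp42 had the largest differences, at 19.6-fold and 14.8-fold lower, which ranked them 2 and 6 from the lowest of all probe sets. The other 6 were between 3.26-fold and 6.10-fold lower, and each of the 8 differences was larger than the spread between probe sets of a gene. All 8 stayed at least 2-fold lower in each scaling tried, but with the floor raised to the 60th percentile Zfp57 differed by -0.85.

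Zfp42 and Fbxo15, the pair with the largest differences, shared an order of arrays. Zfp42 had intensities of 1219, 82.4, 1785 and 553 on the 4 arrays. Control cells without LIF stood apart as the lowest array, and Akt cells without LIF lay between them and both arrays with LIF. Fbxo15 had intensities of 651, 33.2, 704 and 213, again with control cells without LIF far below the rest. Control cells kept 6.76% of the Zfp42 intensity and 5.10% of the Fbxo15 intensity after withdrawal. Rhox5 had intensities of 553, 105, 1243 and 883, and here both arrays of Akt cells were above both arrays of control cells.

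The 2 developmental pluripotency associated genes did not follow each other. Dppa2 had intensities of 947, 291, 1394 and 873, so that control cells without LIF were low and the other 3 arrays were within 2-fold of each other. Dppa3 had intensities of 136, 22.4, 51.4 and 23.9. For Dppa3, control cells with LIF were the array that stood apart, and the 2 arrays without LIF lay close together and near the floor.

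The signalling genes and Zfp57 were also lowest in control cells without LIF. Tdgf1 had intensities of 301, 71.4, 230 and 148, the array of control cells with LIF being highest. Its probe set carries the suffix that Affymetrix gave to sets for which some probe selection rules had been relaxed. The sets used for Peg10 and Sox2 below carry the same suffix. Fgf4 had intensities of 403, 78.1, 674 and 481, and as for Rhox5 both arrays of Akt cells were above both arrays of control cells. Zfp57 had intensities of 86.0, 16.5, 124 and 62.6, of which the second is just above the floor, so that its difference depends on where the floor is set.

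**Figure D1:**
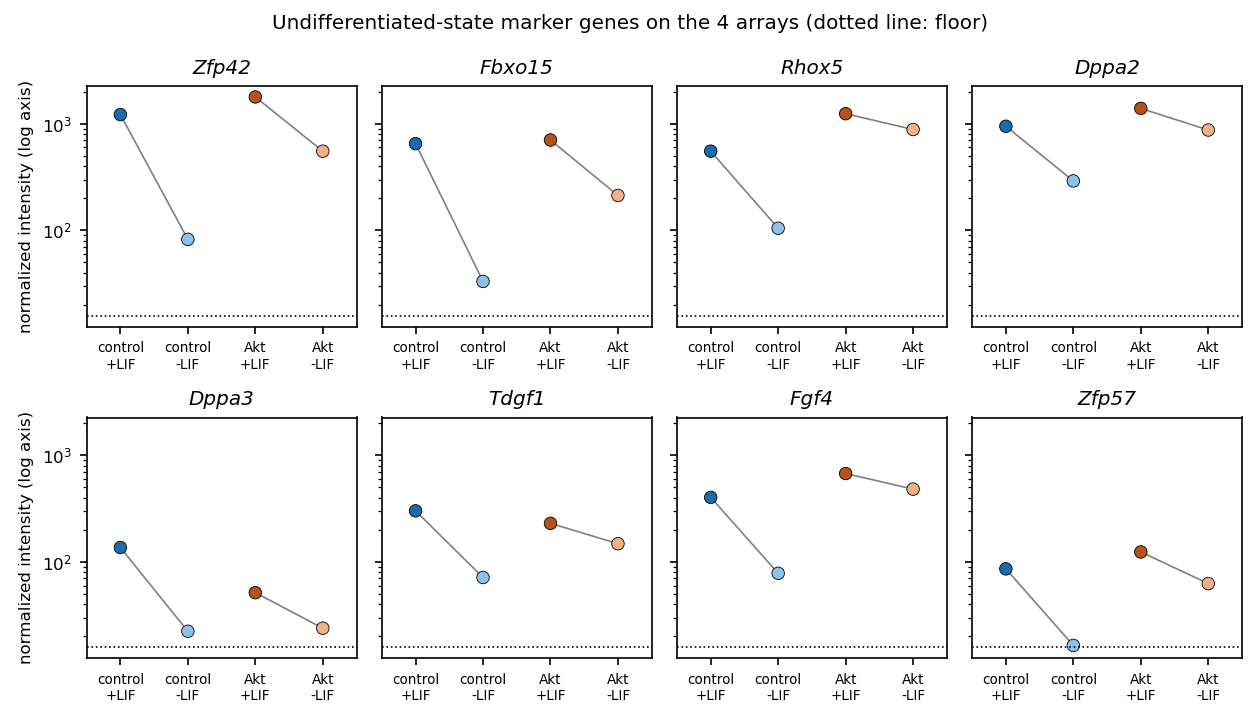
Normalized intensity (log axis) of the 8 marker genes on the 4 arrays; each point is 1 array, grey lines join the 2 media of a line, and the dotted line is the floor of 15.8. Every gene is lower without LIF in both lines, and the line is flatter in Akt cells, with Zfp42 going from 1219 to 82.4 in control cells and from 1785 to 553 in Akt cells.

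In Akt cells the same withdrawal left these genes closer to their level with LIF. All 8 were again lower without LIF, but 3 of them at least 2-fold, against 3.51% of 7918 probe sets, with a median log2 difference of -0.83 for the 8 genes and 0.01 for all probe sets. Fbxo15 was 3.31-fold lower, Zfp42 3.23-fold and Dppa3 2.15-fold. Dppa3 lost that call with the floor at the 60th percentile (-0.10) and with log2(value + 16) (-0.76). Zfp57, at 1.98-fold, fell just short of the threshold. Dppa2 (1.60-fold), Tdgf1 (1.55-fold), Rhox5 (1.41-fold) and Fgf4 (1.40-fold) were lower by less than 2-fold. Each of these differences was larger than the spread between probe sets, but so were those of many other probe sets. In the same order they ranked 662, 733, 1083 and 1099 from the lowest of 7918. Akt cells without LIF kept 71.4% of the Fgf4 intensity, 71.1% of that of Rhox5, 31.0% of that of Zfp42 and 30.2% of that of Fbxo15.

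Every one of the 8 responses was less negative in Akt cells than in control cells. The difference between the 2 responses was 2.57 on the log2 scale for Fbxo15, 2.20 for Zfp42, 1.91 for Rhox5, 1.88 for Fgf4, 1.44 for Tdgf1, 1.40 for Zfp57 and 1.03 for Dppa2, and that of Dppa3 lay between those of Fgf4 and Tdgf1. Over the 6511 probe sets above the floor on all arrays the median of this difference was 0.04, and the central 90% lay between -1.23 and 1.29. Dppa2 lay within that range. For Dppa3 the 2 lines were alike and near the floor without LIF (22.4 in control and 23.9 in Akt cells). Its less negative response thus went with a lower intensity with LIF in Akt cells, 51.4 against 136 in control cells. With 4 arrays no residual is left to test the difference between the responses. With the floor at the 60th percentile the difference for Zfp57 turned to -0.14, while the other 7 kept their direction.

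**Figure D2:**
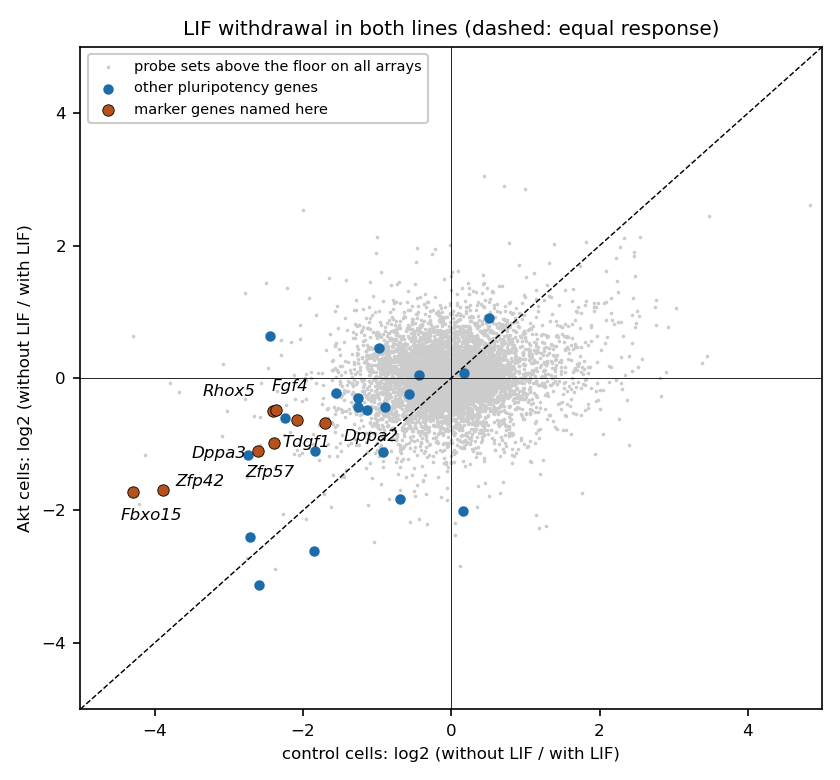
Log2 difference without against with LIF in control cells (x axis) and in Akt cells (y axis); grey points are the 6511 probe sets above the floor on all 4 arrays, blue points 20 other pluripotency genes, orange points the 8 marker genes, and the dashed line marks equal responses. The 8 marker genes are all left of -1.7 on the x axis and between -1.73 and -0.49 on the y axis, above the dashed line.

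The other pluripotency genes give the setting for this difference. Of 32 listed, 25 were measured and 24 entered each withdrawal comparison, having passed the floor on 1 or both of its arrays, and 15 of them were at least 2-fold lower in control cells (median log2 difference -1.40) and 10 in Akt cells (median -0.46). In control cells the largest differences were in Nr0b1, a nuclear receptor gene (at least 20.9-fold lower, since its array without LIF was at the floor), Nr5a2, a nuclear receptor gene (6.67-fold), Klf4, a transcription factor gene (6.58-fold), and Tcl1, whose product binds Akt (6.04-fold). In Akt cells they were in Tcl1 (8.74-fold), the transcription factor gene Tfcp2l1 (6.10-fold), Nr0b1 (5.59-fold) and Klf4 (5.29-fold). Klf4 had intensities of 568, 86.4, 620 and 117, low without LIF in both lines alike, which is unlike Rhox5 or Fgf4. Second probe sets of Nr0b1 and Klf4 were at the floor on all arrays, and those of Nr5a2 and Tfcp2l1 differed by -0.09 in control cells and -0.79 in Akt cells, less than the first ones. Of 20 list members that passed the floor on each of the 4 arrays, 14 had a less negative or more positive response in Akt cells, with a median difference of 0.47, and 5 were above 0 after withdrawal in Akt cells, against none of the 8 markers. No test of the 8 markers against these 20 genes was made.

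With LIF present, Akt cells and control cells differed less in these genes. Rhox5 was 2.25-fold higher in Akt cells and Dppa3 2.65-fold lower, and the other 6 were within 2-fold, so that 1 of 8 was counted higher and 1 lower, beside 3.28% and 3.51% of 7930 probe sets. The median log2 difference of the 8 genes was 0.54, and that of all probe sets 0.01. Fgf4 (0.74), Dppa2 (0.56), Zfp42 (0.55) and Zfp57 (0.53) were higher in Akt cells by more than the probe-set SD of 0.36. Of these, Fgf4 ranked 540 and Zfp57 1069 from the highest of 7930, with Dppa2 and Zfp42 between them. Fbxo15 (0.11) was higher by less than that SD, and Tdgf1 (-0.39) was lower. These directions rest on the scaling: with values as deposited, where the median of all probe sets was -0.51, Fbxo15 was at -0.50 and Zfp57 at -0.05, and Rhox5 at 0.61 no longer reached 2-fold.

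Without LIF, 7 of the 8 genes were at least 2-fold higher in Akt cells than in control cells, beside 5.59% of 7991 probe sets, with a median log2 difference of 2.28 against 0.06 for all. Rhox5 was 8.43-fold higher, Zfp42 6.71-fold, Fbxo15 6.40-fold and Fgf4 6.17-fold, which placed them between rank 12 and rank 20 from the highest. Zfp57 was 3.80-fold higher and Tdgf1 2.07-fold, with Dppa2 between them at a log2 difference of 1.59. Dppa3 was the exception, at 1.07-fold, a log2 difference of 0.10 within the probe-set SD of 0.41. This comparison uses the same 2 arrays without LIF as the withdrawal comparisons, so it gives no independent view of them. Tdgf1 no longer reached 2-fold as deposited (0.72, with the median of all probe sets at -0.23), divided by the trimmed mean (0.999) or with log2(value + 16) (0.91). Zfp57 no longer did with the floor at the 60th percentile (0.39), and Dppa3 was at -0.27 as deposited.

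Set against control cells with LIF, Akt cells without LIF fell into separate cases. Rhox5 was at 160% of that intensity, Fgf4 at 120%, Dppa2 at 92.2% and Zfp57 at 72.8%. Tdgf1 was at 49.2%, Zfp42 at 45.3%, Fbxo15 at 32.6% and Dppa3 at 17.5%, the last close to the 16.4% that control cells kept. For 4 of the 8 genes the Akt cells without LIF were thus at least 2-fold below control cells with LIF, beside 2.07% of 7889 probe sets. The median log2 difference of the 8 genes was -0.74, against 0.01 for the probe sets above the floor on all arrays.

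**Figure D3:**
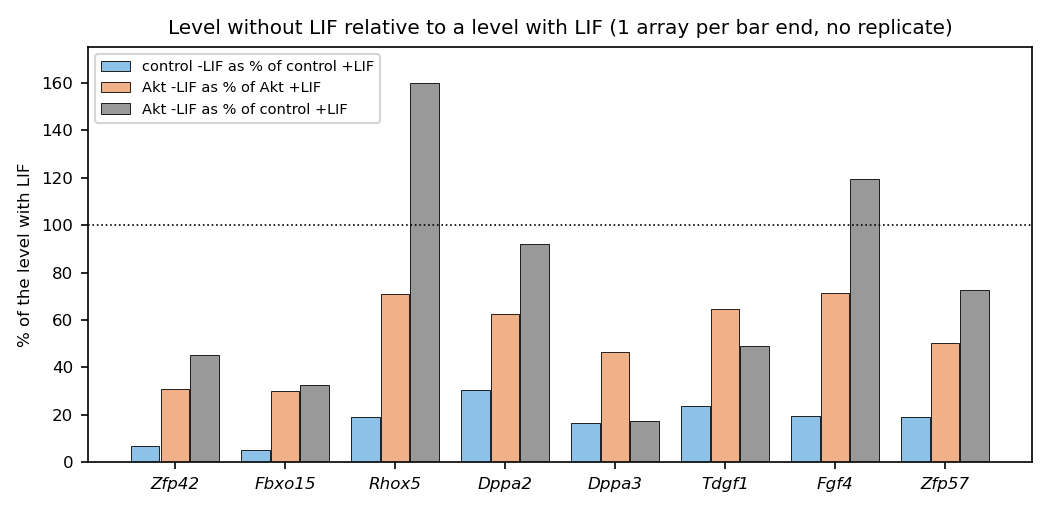
Intensity without LIF as a percentage of an intensity with LIF for each marker gene; blue bars are control cells against themselves, orange bars Akt cells against themselves, grey bars Akt cells without LIF against control cells with LIF, each bar from 2 single arrays. Orange bars exceed blue bars for all 8 genes, grey bars pass 100% for Rhox5 (160%) and Fgf4 (120%), and Dppa3 has its blue and grey bars close together (16.4% and 17.5%).

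The model over both lines, fitted with limma to 8417 probe sets with a term for LIF and a term for the line, was the only test the design allowed. It has 1 residual degree of freedom, which holds the difference between the 2 responses, and that difference was large for these genes. The error of each gene was moderated towards that of all probe sets, with 5.56 prior degrees of freedom. For LIF it passed none of the 8 genes and 0% of probe sets as lower at an adjusted p of 0.05 (smallest adjusted p 0.12), whereas at an unadjusted p under 0.05 all 8 genes were lower, beside 3.96% of probe sets. Zfp42 had a fitted log2 difference of -2.79 ± 0.52 (SE; limma adjusted p = 0.262). Fbxo15 had -3.01 ± 0.58 (SE; limma adjusted p = 0.282), and Dppa2, the smallest, had -1.19 ± 0.35 (SE; limma adjusted p = 0.484). Under the other settings the adjusted p ran from 0.0607 to 0.891 for Zfp42, from 0.0756 to 0.891 for Fbxo15 and from 0.27 to 0.891 for Dppa2.

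For the line, 5 probe sets passed the same limma threshold, all lower in Akt cells and none of them among the 8 genes. The share called higher in Akt cells was 0%, and at an unadjusted p under 0.05 it was 3.61%, with 6 of the 8 genes under that value. Rhox5 had the largest fitted log2 difference, 2.12 ± 0.47 higher in Akt cells (SE; limma adjusted p = 0.26). Fgf4 followed with 1.68 ± 0.47 (SE; limma adjusted p = 0.36). Dppa3 was the only one fitted as lower in Akt cells, by -0.66 ± 0.41 (SE; limma adjusted p = 0.822).

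Among themselves the 8 genes, chosen with earlier results of these data known, fell into several patterns. Likeness was measured as the root mean square difference between log2 values, each centred on its mean over the 4 arrays. Zfp42 and Fbxo15 were the closest pair, 0.19 apart, followed by Rhox5 and Fgf4 (0.22) and Dppa2 and Zfp57 (0.28). Dppa3 was farthest from the rest, 0.55 from Tdgf1, its nearest, and 1.41 from Rhox5. The 8 genes lie on 8 different chromosomes in the RefSeq table, and Rhox5 is the only one on the X chromosome.

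Among 5029 genes ranked, those with a probe set above the floor everywhere, the nearest to Zfp42 was Aass, which encodes an enzyme of lysine breakdown. Aass had intensities of 606, 34.5, 642 and 287 and lay 0.21 from Zfp42 and 0.23 from Fbxo15, for which it was also the nearest, followed by Gsta4 (0.63), a glutathione transferase gene. Next to Zfp42 came Rpl39l (0.50), Chchd10 (0.54), Tm7sf3 (0.55) and Cpt1a (0.57). Rhox5 was nearest to the metallothionein gene Mt2 (0.16), whose intensities were 1685, 284, 3171 and 3004, and then to Chchd10 (0.24). Dppa2 was nearest to Celf4 (0.07) and Ctsz (0.08), and Fgf4 to Dhx16 (0.17) and the germ cell gene Tex19.1 (0.18).

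Tdgf1 was nearest to Csrp2 (0.17) and Ulk1 (0.19), and Zfp57 to Xrcc5 (0.13) and Dhx16 (0.16). A second Ulk1 probe set differed by -0.98 in control cells where the first differed by -2.05, and a second Xrcc5 probe set was at the floor on all arrays. Dppa3 was nearest to the receptor gene Kit (0.39) and the kinase gene Sgk1 (0.49). Kit had intensities of 96.7, 32.1, 43.7 and 27.1, again with control cells with LIF as the only high array. With 4 arrays, 1 a group, many genes can lie this close, and these distances describe the arrays only.

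**Figure D4:**
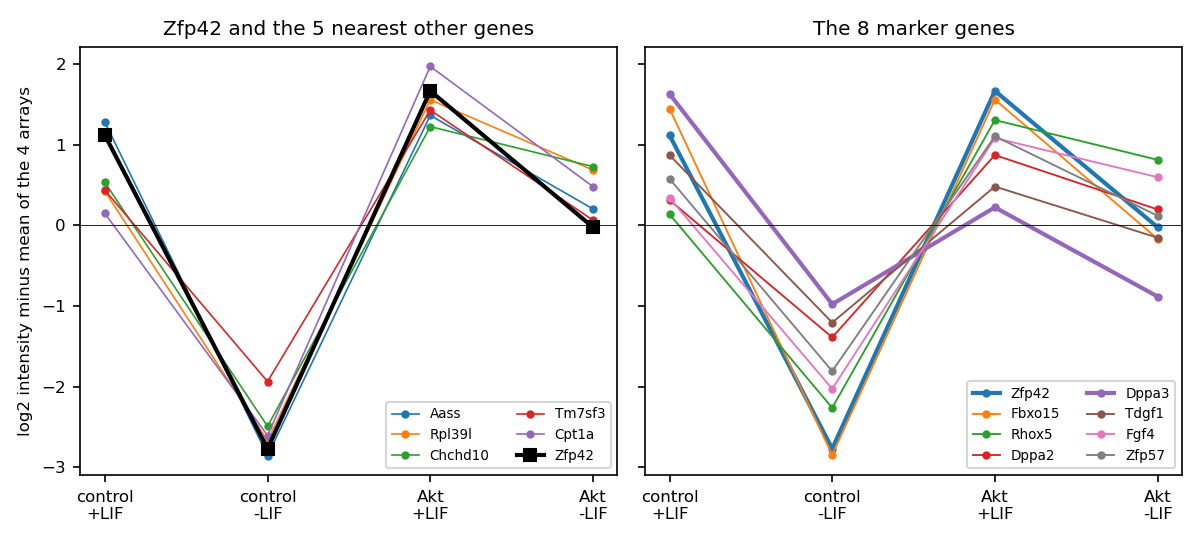
Log2 intensity minus its mean over the 4 arrays, by array, for Zfp42 with its 5 nearest genes (left) and for the 8 marker genes (right); each point is 1 array. Zfp42 and Aass run together on the left (distance 0.21), and on the right Dppa3 is the gene that is lower in Akt cells with LIF than in control cells with LIF by more than 2-fold.

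Genes known to act with these markers were described as lists, to be read beside all probe sets: after withdrawal 6.19% were at least 2-fold lower and 7.19% higher in control cells, and 3.51% lower and 2.87% higher in Akt cells. For Fgf4, receptors and genes on the ERK side were taken, of which 14 of 18 were measured and 11 were tested in each withdrawal. In control cells 2 were at least 2-fold lower and 1 higher (median log2 difference 0.13), and in Akt cells 0 were lower and 1 higher (median 0.20), where the median sign turned to -0.13 in control cells with values as deposited and to -0.004 in Akt cells when scaled to hybridisation controls. With the floor at the 60th percentile 0 of the 7 then tested were lower or higher in either line. Sos1, which encodes an exchange factor for RAS, was 2.15-fold lower in control cells. Fgf15 was at least 2.24-fold lower and Fgf8 at least 2.48-fold higher in control cells, and Fgf15 was at least 2.31-fold higher in Akt cells, these being bounds against the floor. Fgfr1, a receptor gene, had intensities of 119, 233, 102 and 130 and thus was highest in control cells without LIF, where Fgf4 was lowest, at 1.96-fold above its level with LIF. Fgf5, a gene of the later epiblast, was at the floor on all 4 arrays.

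For Tdgf1, 15 of 18 genes of the Nodal pathway were measured and 12 tested in each withdrawal. In control cells 1 was lower and 2 were higher (median 0.29), while as deposited 4 were lower and 2 higher (median -0.06). In Akt cells 0 were lower and 2 higher (median 0.17, or -0.04 when scaled to hybridisation controls), or 0 of 9 higher with the floor at the 60th percentile. Gdf3, which encodes a ligand of the same receptors, was 2.93-fold lower in control cells. A second Gdf3 probe set was at the floor on all arrays. Also in control cells, Drap1, a transcriptional repressor gene, was 3.05-fold higher and Furin, which encodes a protease that processes Nodal, was 2.63-fold higher. In Akt cells Foxh1, which encodes a partner of SMAD proteins, was 2.70-fold higher and Skil at least 2.16-fold higher. Nodal itself had intensities of 379, 496, 331 and 541, without the low array that its coreceptor Tdgf1 had in control cells without LIF. It differed by 0.39 in control cells, within the SD between probe sets, and by 0.71 in Akt cells.

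For Zfp57, 19 of 24 corepressor and imprinted genes were measured. Of 16 tested in control cells 0 were lower and 6 higher (median 0.66), and of 17 tested in Akt cells 0 were lower and 2 higher (median 0.24), while as deposited 2 were higher in control cells (median 0.36). Peg3, a paternally expressed imprinted gene, was 4.70-fold higher in control cells and 2.75-fold higher in Akt cells. Its intensities were 390, 1833, 212 and 583, highest on the array where Zfp57 was lowest. The other 2 Peg3 probe sets were higher by 2.74 and 1.51 on the log2 scale in control cells and by 1.08 and 0.55 in Akt cells. Igf2 was 3.89-fold higher in control cells, Mest 2.55-fold and Peg10 2.51-fold, and in Akt cells Ndn was 2.27-fold higher. Unlike Peg3, Igf2 was highest in Akt cells without LIF, with intensities of 254, 989, 930 and 1442. A second Igf2 probe set was at the floor on all arrays, and a second Ndn probe set differed by 0.84 in Akt cells, short of 2-fold. Trim28, which encodes the corepressor that Zfp57 recruits, had intensities of 2597, 1926, 2172 and 2253, all within 2-fold.

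For Dppa2 and Dppa3, 8 of 17 chromatin and preimplantation genes were measured. In control cells 2 of 8 were lower and 0 higher (median -0.55), and in Akt cells 0 of 7 were lower and 1 higher (median 0.08, or -0.12 when scaled to hybridisation controls). Dppa4, the partner of Dppa2, had intensities of 803, 367, 693 and 494, the same order as Tdgf1, and was 2.19-fold lower in control cells. Dnmt3a, a DNA methyltransferase gene, was 5.64-fold lower in control cells and 2.69-fold higher in Akt cells, with intensities of 206, 36.6, 127 and 343. A second Dnmt3a probe set was at the floor on all 4 arrays.

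Of the subunits of the ubiquitin ligase into which F-box proteins such as Fbxo15 fit, 5 of 7 were measured, and 0 of them reached 2-fold in any of the 4 comparisons. Skp1, which binds the F-box, differed by -0.49 in control cells and by 0.33 in Akt cells. For Rhox5, 2 of 11 listed reproductive homeobox and X-linked germline genes were measured, and they gave no difference to report: Xlr4a was at the floor on all arrays, and Rhox6 was above it only in Akt cells without LIF, at 17.7.

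Markers of other cell types moved on the same arrays, and their part in the differences above was not tested. The sums below are of normalized intensities before the floor was applied. Primitive streak and mesoderm markers (7 measured, 1 at the floor on all arrays) summed to intensities of 620, 2795, 90.0 and 299, of which Tagln made up 1319 and Acta2 904 in control cells without LIF. The streak gene Wnt3 had 75.1, 376, 26.2 and 114. The sums of trophoblast markers (9 measured, 1 at the floor on all) were 792, 2346, 703 and 837. The keratin genes Krt8, Krt18 and Krt19 made up 768, 627 and 538 of this sum in control cells without LIF. Of 7 tested in control cells, 4 were at least 2-fold higher after withdrawal and 0 lower, beside 7.19% of all probe sets higher. Tfap2c went from 335 to 226 there, and Elf5 was at the floor on all arrays. The mesoderm and trophoblast sums were highest in control cells without LIF, as were those of epiblast and of fibroblast or feeder markers below. On that array 7 of the 8 genes were at least 2-fold below Akt cells without LIF. Endoderm markers (11 measured, 3 at the floor on all) summed to 346, 907, 893 and 988, with 5, 4, 8 and 7 of them above the floor. In control cells Col4a1 went from 176 to 548 and Dab2 from 39.6 to 218 without LIF, while Lama1 went from 51.5 to below the floor. Other Dab2 probe sets differed by 1.62 and 0.30 on the log2 scale in control cells, where the one used differed by 2.46. Epiblast markers (4 measured, 1 at the floor on all) summed to 168, 345, 49.6 and 161, of which Cdh2 made up 274 in control cells without LIF. Pou3f1 (36, 24.8, 11.3 and 40.7) and Zic2 (37, 37.2, 24.4 and 73.8) were instead highest in Akt cells without LIF. After withdrawal 3 of 3 tested were at least 2-fold higher in Akt cells and 1 of 3 in control cells, beside 2.87% and 7.19% of all probe sets. A second Zic2 probe set differed by 0.98 in control cells and by -0.43 in Akt cells. Fibroblast or feeder markers (11 measured, with Postn and Pdgfrb at the floor on all) summed to 468, 920, 534 and 464, and neuroectoderm markers (7 measured, 1 at the floor on all) to 826, 589, 805 and 686. The 5 defining embryonic stem cell markers Pou5f1, Nanog, Sox2, Utf1 and Alpl were above the floor on all 4 arrays and summed to 4882, 1608, 4913 and 3439, so the labelled cell type carried its markers in every group.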

How the data were processed

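Total RNA of 4 cultures was measured on 4 arrays, 1 per group, and groups were taken from the sample titles. The authors deposited 1 linear intensity per probe set and array, and the sources used here do not give the software or scaling behind them. Because the 2% trimmed means differed by up to 1.51 times, the 12422 intensities per array that are not of the 66 control probe sets were brought to the same distribution (limma 3.58.1, normalizeQuantiles, R 4.3.3), floored at the 40th percentile of all values and put on the log2 scale. A shift shared by most probe sets of an array is lost in that step. Gene names came from the platform annotation (10833 probe sets with 1 symbol, 396 with several, 1193 with none), updated by gene identifier through RefSeq of GRCm38.p6 (10817 found). Where a gene outside the 8 had several probe sets, the one with the highest mean stood for it.

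The threshold was 2-fold between single arrays. The limma model (lmFit, eBayes, two-sided, Benjamini-Hochberg) had 1 residual and 5.56 prior degrees of freedom. Its residual is the difference between the responses of the 2 lines, so its p-values do not measure the spread between replicate arrays or cultures. The steps were tested on simulated data with independent noise and the same LIF effect in both lines. That simulation does not show how the model behaves for genes whose responses differ between the lines, as these do. Named were the 8 genes, the 5 nearest genes to Zfp42 and the 2 nearest to each other gene, and from each partner list at most the 4 largest past 2-fold in each withdrawal and direction. Klf4, Peg3, Aass, Mt2 and Kit were among these. Fgfr1, Fgf5, Nodal, Trim28, Skp1, Xlr4a, Rhox6 and the single markers of other cell types were named after their values were seen. The 8 genes and all lists were chosen with earlier results of these data known. The alternatives were values as deposited, 2 other scalings, 2 other floors, log2(value + 16), a 1.5-fold threshold, an intensity trend in eBayes and each term fitted alone. The number of arrays limits the precision.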

Additional observations from a re-analysis of the deposited data

Results flagged for a closer look

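Tdgf1, the Nodal coreceptor gene, differed between the lines in opposite directions in the 2 media. It was lower in Akt cells than in control cells with LIF, by a log2 difference of -0.39, and higher without LIF, by 1.05. Each value is larger than the SD between probe sets of a gene, 0.36 with LIF and 0.41 without, but each rests on 2 single arrays and the difference between them was not tested. The difference with LIF was -0.28, within that SD, when scaled to hybridisation controls, and -0.96 with values as deposited, where the median of all probe sets was itself -0.51.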

How the results depend on the processing

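The count of the 8 genes at least 2-fold different in each comparison was within 1.5 times its value above under most alternatives. The exceptions were LIF withdrawal in Akt cells, with 6 genes at a 1.5-fold threshold in place of 3, and Akt against control cells with LIF, with 1 gene as deposited in place of 2. The difference of LIF responses of Zfp57 reversed to -0.14 with the floor at the 60th percentile, because its low intensities are then at the floor. In control cells 8 of the 8 genes were lower under all settings but that floor, where 7 were. Over all probe sets the counts moved more: lower after withdrawal in control cells from 494 to between 270 and 1368, higher from 574 to between 372 and 1292, lower in Akt cells from 278 to between 143 and 835, higher from 227 to between 84 and 849. Between the lines with LIF, 278 lower (127 to 1297) and 260 higher (86 to 896), and without LIF 627 lower (386 to 1196) and 447 higher (205 to 1292), were counted. Scaling moved the balance of directions: as deposited, control cells had 987 lower and 436 higher after withdrawal, and Akt against control cells had 1297 lower and 86 higher with LIF and 966 lower and 205 higher without it. Scaled to hybridisation controls, withdrawal in Akt cells gave 440 lower and 143 higher. That scaling moved the median of all probe sets to -0.16 for withdrawal in Akt cells and 0.13 for Akt against control cells with LIF, and values as deposited moved it to -0.25 for withdrawal in control cells. The limma count for the line ran from 0 to 30 around 5, and that for LIF from 0 to 1 around 0. The limma model already holds the line as a block for LIF; with each term fitted alone, 0 probe sets were called for LIF and 0 for the line. Leaving out arrays was not run, since each group has 1 array and no residual would be left. Near the floor, as for Dppa3 and Zfp57 without LIF, the signal limits what can be seen.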
